A study of Mus musculus with 2 samples.

Results

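The nuclei described here lay on the arcuate nucleus (ARC) side of a pooled library from the mouse hypothalamus and were chosen by a rule on which genes they held. A nucleus became a member if it had a unique molecular identifier (UMI, 1 captured RNA molecule) in at least 4 of the 8 genes 4930509J09Rik, Gm20754, Epha6, Chrm2, Ust, Col25a1, Adcy2 and Cartpt, and a UMI of Gm20754 or 4930509J09Rik. Of 11409 barcodes in the deposited matrix, 10170 passed the filters, with gene numbers above 800 and below 5000, no more than 12000 UMIs and a mitochondrial share of 1% or less. Of these, 4395 lay on the ARC side, meaning that UMIs of the ARC hashtag were at least 0.8 times those of the PVH hashtag. A hashtag is a barcoded antibody that marks the nuclei of 1 preparation before they are mixed. The rule found 396 members, 9.01% of the ARC-side nuclei (interval 8.18 to 9.90), and left 3999 other nuclei.

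The mice were wild-type C57BL/6J males aged 10 to 12 weeks, 6 by the study's account, and their nuclei were enriched by sorting on NeuN, which marks neurons, before capture with 10x Genomics Chromium v.3. All nuclei formed 1 pooled library with 1 hashtag library. The 2 hashtags are labelled ARC and PVH, and no barcode is tied to a mouse. There was thus 1 sample and no replicate, no test was made, and every comparison below describes these nuclei. Levels were summed over a group of nuclei and are given as CPM, a gene's UMIs in each 1000000 UMIs of the group. Ranges in parentheses after levels, shares and ratios are 95% intervals from exact Poisson or binomial distributions, and they cover counting error only. Members held 2303512 UMIs with a median of 5036 per nucleus, and the other nuclei held 20082395 with a median of 4755.

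Leptin is a hormone of fat cells that reports energy stores to the brain, and its receptor Lepr signals through the kinase Jak2 and the transcription factor Stat3. In the ARC, AGRP neurons raise food intake and POMC neurons lower it, and both carry Lepr. Inhibitory neurons load GABA into vesicles with the transporter Slc32a1 after making it with Gad1 and Gad2, whereas excitatory neurons of the hypothalamus load glutamate with Slc17a6. Chrm2 encodes the M2 muscarinic receptor, which answers acetylcholine by inhibiting adenylyl cyclase and opening GIRK potassium channels.

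The name under which these nuclei were proposed was GABA neurons rich in Lepr, marked by Gm20754, Chrm2, Glp1r and Cxcl12. Over all 396 members the data went against part of that name. Lepr was 1.36 times the level of the other nuclei, Slc32a1 and Slc17a6 were at like levels, Glp1r rested on 21 UMIs and Cxcl12 on 3. A compact subset of 157 members did have high Lepr with little Slc17a6, and the other 239 were scattered over the remaining clusters. Of the GABA genes in that subset, Slc32a1 was 1.52 times the nuclei of the other clusters (1.09 to 2.07), Gad1 0.792 times (0.561 to 1.09) and Gad2 0.688 times (0.533 to 0.876). The members are therefore called by the gene found in most of them, the Gm20754 nuclei, and both subsets are followed below.

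The 2 long noncoding RNAs that the rule required share a locus. On GRCm38 with GENCODE M21, Gm20754 spans chr3:73066316-73594830 on the plus strand, and 4930509J09Rik spans chr3:73351206-73481651 on the minus strand, wholly inside it. No source used here says whether counting was by strand, so their UMIs cannot be fully told apart and are not independent evidence. Another annotated RNA inside the locus, Gm38353, was listed with 0 UMIs in members and in the other nuclei. Both RNAs were detected together in 191 members, Gm20754 alone in 168 and 4930509J09Rik alone in 37. In 131 members (33.1%) a single UMI of the pair met the requirement.

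The start of Gm20754 is shown because this RNA defines the members, that of Lepr because it names them, and that of Cartpt because it alone, among 10 genes searched, held either of 2 motifs. Each window runs from 250 bases before to 50 bases after a gene start in RefSeq (GRCm38.p6), in the direction of the gene. The motifs were the STAT site TTCNNNGAA and the cAMP response element TGACGTCA on both strands, and capitals mark a match. The first occurs in 8.30% and the second in 1.79% of 32851 windows of the same length, and they were also absent from the windows of Chrm2, Crhr2, Bche, Glp1r, Cxcl12, Epha6 and Oprd1. The Cartpt match starts 112 bases before the gene start.
Gm20754, chr3:73066101-73066400, plus strand: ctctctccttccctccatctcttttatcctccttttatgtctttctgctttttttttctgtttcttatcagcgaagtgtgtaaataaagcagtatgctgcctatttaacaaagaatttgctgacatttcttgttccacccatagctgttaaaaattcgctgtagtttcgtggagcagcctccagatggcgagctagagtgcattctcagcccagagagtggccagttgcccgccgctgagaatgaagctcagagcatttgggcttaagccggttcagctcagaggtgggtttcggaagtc
Lepr, chr4:101717157-101717456, plus strand: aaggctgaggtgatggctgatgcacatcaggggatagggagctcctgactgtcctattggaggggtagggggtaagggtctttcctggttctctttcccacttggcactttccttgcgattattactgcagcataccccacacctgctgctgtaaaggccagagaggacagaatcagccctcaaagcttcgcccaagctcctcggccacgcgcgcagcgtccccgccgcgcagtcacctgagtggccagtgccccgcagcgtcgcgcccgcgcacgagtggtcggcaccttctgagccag
Cartpt, chr13:99900634-99900933, minus strand: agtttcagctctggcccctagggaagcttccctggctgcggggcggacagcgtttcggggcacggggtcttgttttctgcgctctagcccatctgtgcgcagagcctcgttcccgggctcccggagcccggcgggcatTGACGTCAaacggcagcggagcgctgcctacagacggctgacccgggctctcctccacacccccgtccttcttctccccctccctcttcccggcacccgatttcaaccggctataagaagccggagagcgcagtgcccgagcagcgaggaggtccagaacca

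The values of the 8 rule genes describe how the members were chosen and are not findings. Gm20754 stood at 444 CPM in members (417 to 472) and 26.1 in the other nuclei (23.9 to 28.4), with 0 to 17 UMIs and a median of 2 per member. 4930509J09Rik stood at 229 CPM against 11.4, with 0 to 9 UMIs per member and a median of 1. Chrm2 stood at 117 CPM (104 to 132) against 34.6 (32.1 to 37.3), and 127 of the 396 members had a UMI of it. Gm20754 was thus found in most members (359) and Chrm2 in a minority. Epha6, an ephrin receptor, was found in 86.9% of members and 38.7% of the other nuclei. Adcy2, an adenylyl cyclase, was found in 75.5% against 33.7%, and Col25a1, a transmembrane collagen, in 61.9% against 28.8%. Cartpt, the precursor of the satiety peptide CART, was found in 49.2% against 30.8%, the narrowest gap of the 8, and Ust, a sulfotransferase of glycan chains, in 39.6% against 12.8%.

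Most members sat near the edge of the rule. Exactly 4 rule genes were found in 165 members, 5 in 127, 6 in 74, 7 in 25 and all 8 in 5. Just outside it, 196 nuclei had a UMI of Gm20754 or 4930509J09Rik and 3 rule genes, and 214 had at least 4 rule genes but neither RNA. Lepr, which the rule did not use, stood at 34.6 CPM (24.4 to 47.7) in the nuclei 1 gene short and at 25.2 CPM (16.3 to 37.2) in members with 4. It stood at 74.8 CPM (56.4 to 97.4) in members with 5 rule genes, 85.5 (59.6 to 119) with 6 and 113 (67.9 to 176) with 7 or 8. By number of genes, the step lay between 4 and 5, where the intervals do not overlap, and not at the rule's limit of 4. The rule's other edge was a UMI of Gm20754 or 4930509J09Rik. In 1 cluster described below, Lepr was 5.96 times higher in members (2.78 to 15.2) than in 68 non-members, 63 of which lacked both RNAs.

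Crhr2 also changed between 4 and 5 rule genes. This receptor for urocortin peptides stood at 6.06 CPM (2.22 to 13.2) with 4 rule genes and 39.5 (26.4 to 56.7) with 5. The intervals of the next 2 genes overlap from 1 step to the next. Sim1, a transcription factor of the paraventricular hypothalamus, stood at 24.2 CPM (15.5 to 36.0) with 4 rule genes and 13.6 (6.53 to 25.0) with 5, and no UMI of it was found in the 104 members with 6 or more. Slc17a6 stood at 83.3 CPM (66.9 to 102) in the nuclei 1 gene short, 68.6 (53.3 to 87.0) with 4, 46.3 (32.0 to 64.7) with 5, 34.2 (18.7 to 57.4) with 6 and 35.6 (13.1 to 77.5) with 7 or 8. Slc32a1 showed no such step, at 39.4 CPM with 4 (28.0 to 53.8), 39.5 with 5 (26.4 to 56.7), 63.5 with 6 (41.5 to 93.1) and 29.7 with 7 or 8 (9.63 to 69.2). Median depth was 5103.5 UMIs in the nuclei 1 gene short, 5237 with 4 rule genes, 4873 with 5, 4817 with 6 and 5350 with 7 or 8.

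**Figure D1:**
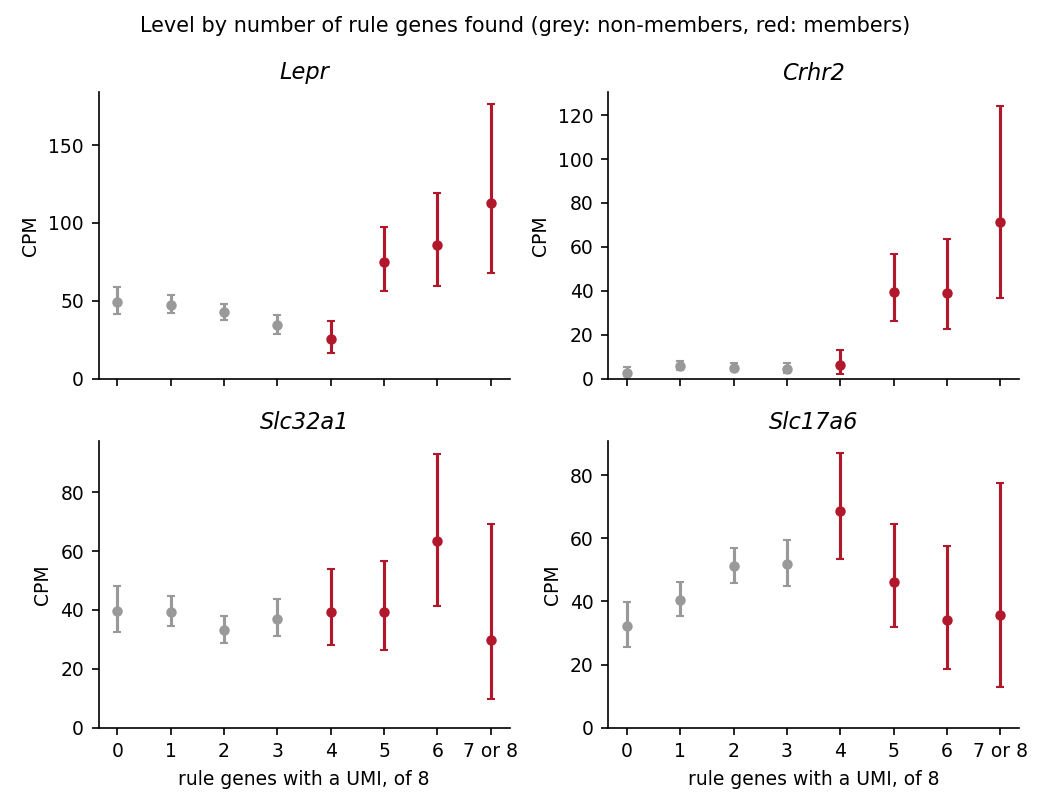
Level (CPM, linear axis from 0) of Lepr, Crhr2, Slc32a1 and Slc17a6 against the number of the 8 rule genes with a UMI in a nucleus. Grey points are non-members with 0 to 3 rule genes, red points are members, and bars are 95% Poisson intervals. Lepr stood at 25.2 CPM in members with 4 rule genes and 74.8 in those with 5.

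To see where the members lie when the rule genes are set aside, the 4395 ARC-side nuclei were clustered on 1992 variable genes that did not include the 8. Of 15 clusters, cluster 10 held 157 members among its 225 nuclei, 69.8% of the cluster (63.3 to 75.7) and 39.6% of all members. Naming called for 3 or more markers at 1.5-fold, with the list's leading marker among them, and cluster 10 met this for no list and has no name. It did pass 3 markers of the POMC list, Cartpt (1.61 times the other nuclei), Sntb1 (2.02) and Tbx3 (1.87), while Pomc itself stood at 0.607 times, and Cartpt is a rule gene. The remaining 239 members lay in 13 other clusters, with 89 in cluster 1, 34 in cluster 8, 29 in cluster 7, 21 in cluster 3 and 20 in cluster 11. Cluster 2, named AGRP-like by Agrp and its companions, held 1 member among 674 nuclei, and the POMC-like cluster 4 held 8 among 315. Among the 20 nearest neighbours of a member in cluster 10, a mean of 79.8% were members, against 16.1% for members elsewhere and 5.06% for the other nuclei.

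**Figure D2:**
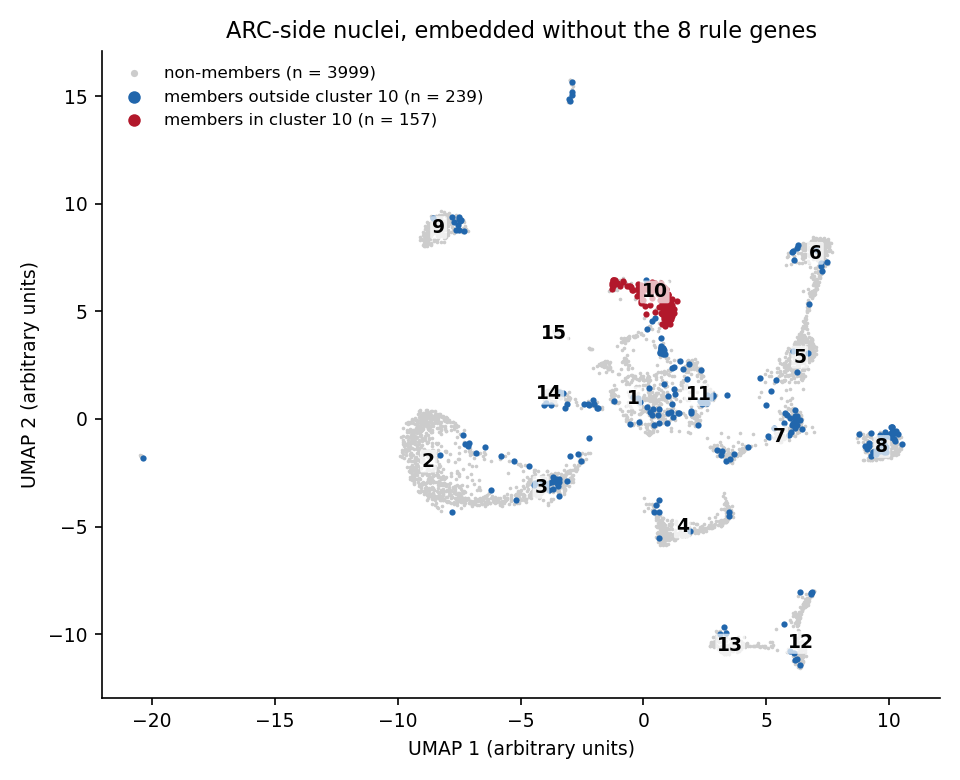
Embedding in a plane (UMAP, arbitrary units) of the 4395 ARC-side nuclei made without the 8 rule genes, with cluster numbers at the median position of each cluster. Red points are the 157 members in cluster 10, blue points the 239 members outside it and grey points the 3999 non-members. The red points form 1 group and the blue points lie across the other clusters.

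The share of members in cluster 10 followed the number of rule genes found. It was 12.7% of members with 4 rule genes, 42.5% with 5, 73.0% with 6, 92.0% with 7 and 100% with 8 (5 nuclei). Both RNAs of the locus were found in 66.9% of the members in cluster 10 and 36.0% of those outside it. Members outside cluster 10 were deeper, at a median of 5982 UMIs against 4577. They made up 0.314% of ARC-side nuclei under 3000 UMIs (0.00796 to 1.74), 4.07% from 3000 to 5000, 5.74% from 5000 to 8000 and 17.8% from 8000 to 12000 (13.8 to 22.3). Members in cluster 10 made up 2.20%, 4.39%, 2.84% and 2.96% of the nuclei in those bands, with no such climb with depth. The Seurat function HTODemux called 35 of the 239 members outside cluster 10 doublets of both hashtags (14.6%, 10.4 to 19.8), against 3 of 157 in it (1.91%, 0.396 to 5.48) and 5.38% of the other nuclei (4.70 to 6.12). The part of depth and doublets in the scattered members was not tested.

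Lepr was found in 74 of the 396 members, with 0 to 5 UMIs per nucleus. Its level over all members was 58.2 CPM (48.7 to 68.9) against 42.7 in the other nuclei (39.9 to 45.6), a ratio of 1.36 (1.13 to 1.64). This modest difference was the mean of unlike subsets. In the 157 members of cluster 10 Lepr stood at 125 CPM (101 to 153), found in 54 of them (34.4%, median depth 4577 UMIs). In the 239 members outside it Lepr stood at 24.7 CPM (17.5 to 34.0), found in 20. This was 0.580 times the level of the other nuclei (0.408 to 0.802). Those other nuclei include the AGRP-like and POMC-like clusters, where Lepr stood at 119 and 112 CPM. Without both clusters, the ratio of these 239 members was not computed. Over all nuclei of each cluster outside these 2 and cluster 10, Lepr ran from 4.80 CPM in cluster 12 to 32.7 in cluster 1. The 24.7 CPM lay within that range, so the 0.580 does not show a low level beside those clusters. The difference between the subsets was 5.05-fold (3.44 to 7.56). Beside these shares, Lepr had a UMI in 299 of the 674 nuclei of the AGRP-like cluster, at a median depth of 4868.5 UMIs. It had one in 112 of the 315 nuclei of the POMC-like cluster (median 5465) and 94 of the 833 of cluster 1 (4830). In cluster 6, where Lepr was low, it had one in 7 of 298 nuclei at a median depth of 4365.5 UMIs.

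The other nuclei are no Lepr-poor reference, since they hold the AGRP-like and POMC-like clusters. With both of those left out of the comparison, Lepr in all members was 3.40 times the rest (2.74 to 4.21). Members in cluster 10 stood at 125 CPM of Lepr, the AGRP-like cluster at 119 (107 to 131) and the POMC-like cluster at 112 (96.6 to 128). The ratio to the AGRP-like cluster was 1.05 (0.835 to 1.32) and that to the POMC-like cluster 1.12 (0.869 to 1.44). These 3 neighbours in the order of Lepr levels did not differ beyond counting error, and differences of up to 1.44-fold are within the intervals. Cluster 1 came next at 32.7 CPM, and no other cluster was above 19.4.

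**Figure D3:**
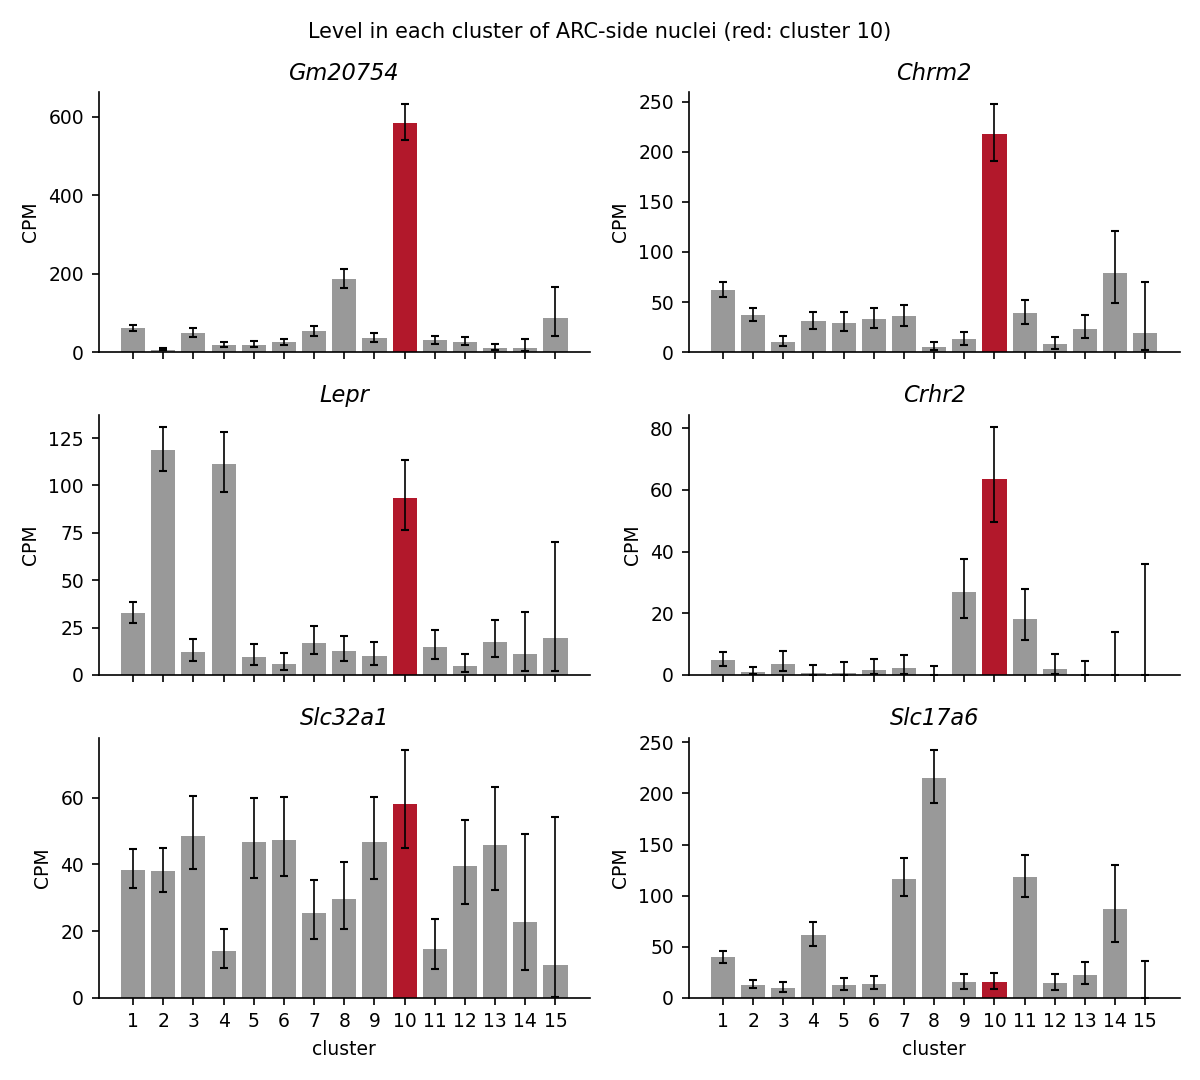
Level (CPM, bars from 0) of Gm20754, Chrm2, Lepr, Crhr2, Slc32a1 and Slc17a6 in all nuclei of each of the 15 clusters, with 95% Poisson intervals and cluster 10 in red. Lepr was highest in clusters 2 (119 CPM), 4 (112) and 10 (93.5), and Slc17a6 was low in cluster 10 (15.4) and high in cluster 8 (215). Gm20754 and Chrm2 were rule genes left out of the clustering.

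Because Lepr and the genes below could have taken part in the clustering, the nuclei were clustered again without any gene of the fixed lists. The 1863 variable genes left gave 15 clusters, and 220 of the 225 nuclei of cluster 10 fell into 1 cluster of 225 that held 158 members. Lepr stood at 92.9 CPM (75.7 to 113) there and 41.8 (39.1 to 44.6) elsewhere. Crhr2 stood at 62.8 CPM (48.9 to 79.5) against 4.46 (3.61 to 5.46). Slc32a1 was 1.65 times (1.26 to 2.12) and Slc17a6 0.303 times (0.173 to 0.495) the level elsewhere, and Gad2 was lower at 0.687 times (0.555 to 0.842). Lepr, Crhr2 and the transmitter genes were thus not among the genes that made this cluster. It held nearly the same nuclei as cluster 10, so its values are not independent of those given for cluster 10.

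Downstream of the receptor, Stat3 stood at 124 CPM (100 to 151) in members of cluster 10 and 59.9 (48.3 to 73.5) in members outside it, a ratio of 2.06 (1.53 to 2.78). The AGRP-like cluster was higher, at 192 CPM (178 to 208). Jak2 stood at 37.8 CPM (25.3 to 54.2) in cluster 10 members and 53.4 (42.5 to 66.3) outside. Socs3, the feedback inhibitor that leptin induces, rested on 5 and 6 UMIs. Of 14 genes of the leptin signalling list at 5 CPM or more, none passed 2-fold in all members, beside 0.376% of all genes tested higher and 0.951% lower. In cluster 10 members, set against the 4170 nuclei of the other clusters, Lepr was past 2-fold higher, and Pik3r1, a regulatory subunit of phosphoinositide 3-kinase, was past 2-fold lower, at 0.383 (0.214 to 0.634). Among all genes tested there, 1.74% were past 2-fold higher and 6.94% lower.

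Glp1r, the receptor of the gut satiety hormone GLP-1, had 21 UMIs in 19 members. Its level was 9.12 CPM (5.64 to 13.9) against 6.62 in the other nuclei, a ratio of 1.38 (0.825 to 2.19). The interval includes 1, so the depth did not allow a difference to be seen. Cluster 3 held the highest level of all clusters at 26.1 CPM, and its 21 members held 7 of the 21 UMIs. Members in cluster 10 stood at 10.4 CPM (4.50 to 20.5) on 8 UMIs, and 1 of the 54 nuclei with Lepr there also had Glp1r.

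Cxcl12, a chemokine that acts on Cxcr4 and Ackr3, had 3 UMIs in 3 members and 13 in the other nuclei. The ratio of 2.01 had an interval from 0.368 to 7.32. Of these 2 UMIs fell in cluster 10, and neither a high nor a low level can be read from these counts. Of the 3 chemokine genes 1 reached 5 CPM over all ARC-side nuclei.

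Over all members the vesicular transporters of GABA and glutamate did not separate from the other nuclei, and the GABA synthesis genes were lower. Slc32a1 stood at 43.0 CPM (34.9 to 52.3) against 36.4 (33.8 to 39.1), a ratio of 1.18 (0.947 to 1.46). Slc17a6 stood at 53.0 CPM (44.0 to 63.2) against 45.6 (42.7 to 48.7), a ratio of 1.16 (0.953 to 1.40). Gad1 and Gad2 stood at 0.8004 (0.658 to 0.966) and 0.774 (0.674 to 0.886) times the other nuclei. A UMI of Slc32a1 without Slc17a6 was found in 76 members, Slc17a6 without Slc32a1 in 71, both in 14 and neither in 235.

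The subsets went apart. In cluster 10 members Slc32a1 stood at 54.7 CPM (39.4 to 73.9) and Slc17a6 at 14.3 (7.15 to 25.6), and 36 nuclei held Slc32a1 alone, 8 Slc17a6 alone and 2 both. In members outside it Slc32a1 stood at 37.1 CPM (28.1 to 48.1) and Slc17a6 at 72.3 (59.5 to 87.1), and the counts were 40, 63 and 12. Slc17a6 was 0.198 times as high in cluster 10 members as in those outside (0.0961 to 0.368). It was highest in the 34 members of cluster 8, at 197 CPM (140 to 269), a cluster led by Col24a1, Nr4a2 and Tac2. Slc17a6 in cluster 10 members was near that of the AGRP-like cluster, whose neurons are GABAergic, at 13.0 CPM (9.50 to 17.4). Slc32a1 intervals of the subsets overlap. Gad2 of cluster 10 members was not high, at 88.5 CPM (68.8 to 112) against 140 (128 to 153) in the AGRP-like cluster and 202 (178 to 229) in the GHRH-like cluster 9.

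Among 12512 genes at 5 CPM or more that were not rule genes, 47 were at least 2-fold higher in members (0.376%) and 119 at least 2-fold lower (0.951%), with a median ratio of 0.973. Crhr2 led the higher genes at 5.44-fold (3.91 to 7.52), with 63 UMIs in members and 101 in the others. It was followed by Tafa2, a small secreted protein of neurons (3.47, 3.12 to 3.86), the adhesion molecule Cntnap3 (3.46, 2.58 to 4.59), the desmosomal cadherin Dsg2 (3.45, 2.28 to 5.13) and the delta opioid receptor Oprd1 (3.18, 2.36 to 4.24). The receptor kinase Ror1 and the ion channel Trpm3 stood at 3.17 (2.41 to 4.13) and 2.59 (2.42 to 2.78). Mro, Gm27151, Nkain2, Lmo7, 4930547E14Rik, Etl4, D030055H07Rik and the transcription factor Dach1 made up the rest of the 15 highest, between 2.52 and 3.14. Nkain2 was the most abundant of them at 3070 CPM against 1028. Gm27151 lies antisense inside Trpm3 and 4930547E14Rik overlaps the rule gene Epha6 on the other strand, so neither is independent of its partner.

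Of the 15 genes, D030055H07Rik had a lower ratio in cluster 10 members than over all members, and the rest had higher ones. In its members, against nuclei of the other clusters, Crhr2 was 17.4 times higher (12.3 to 24.3), Dsg2 8.202 (5.22 to 12.5), Ror1 7.42 (5.50 to 9.88), Tafa2 6.43 (5.66 to 7.28), Oprd1 6.21 (4.35 to 8.68) and Nkain2 6.15 (5.96 to 6.34). Of 12501 genes, 217 were at least 2-fold higher there (1.74%) and 867 at least 2-fold lower (6.94%). Members outside cluster 10 held 4 UMIs of Crhr2, at 2.60 CPM (0.710 to 6.67), which was 0.518 times the other nuclei (0.138 to 1.37). Clusters are built on expression, so these ratios describe the cluster and carry no test.

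**Figure D4:**
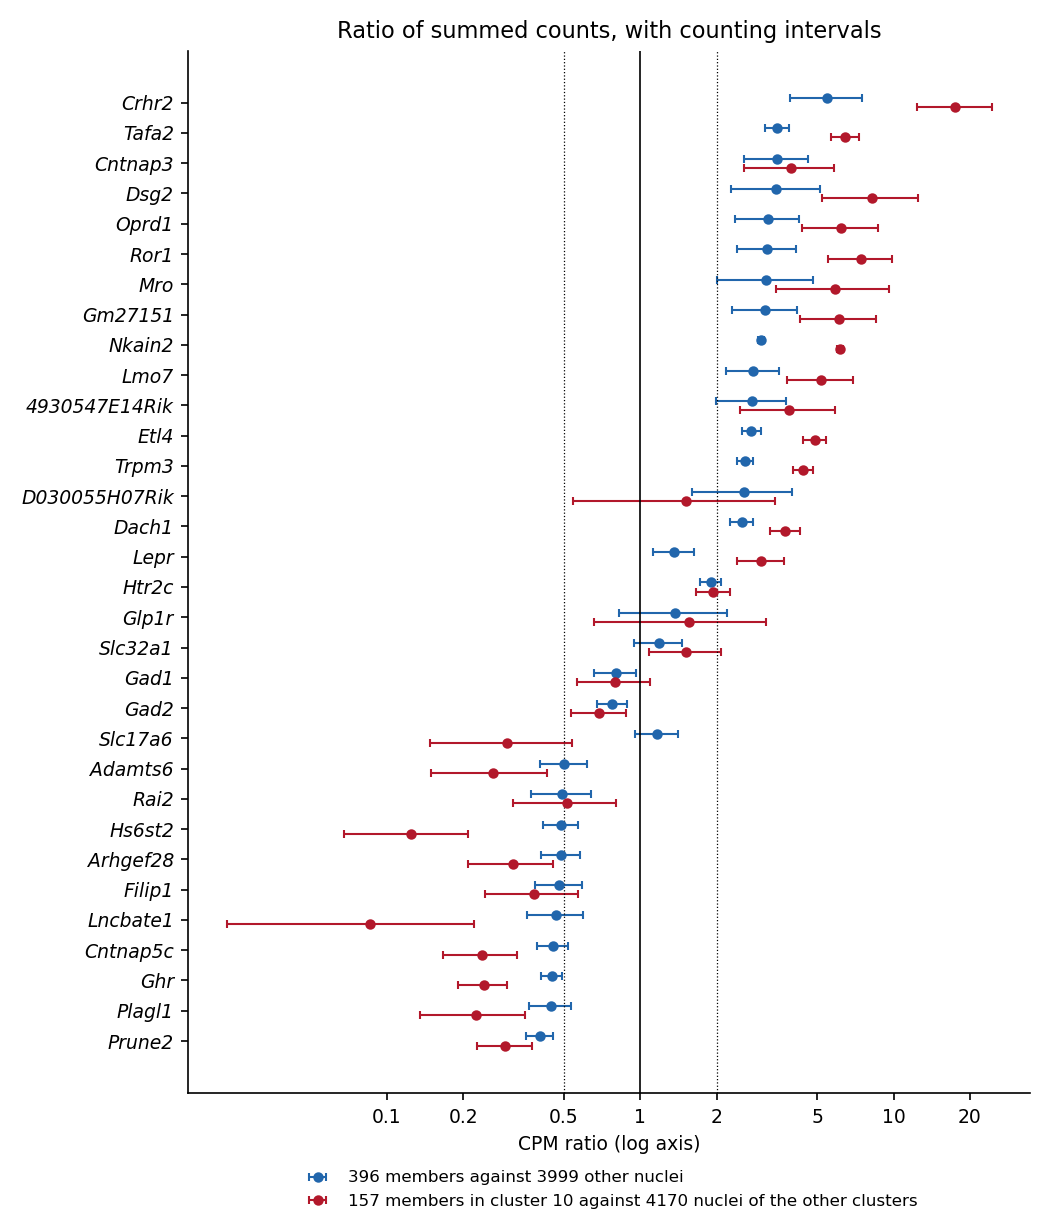
Ratio of CPM (log axis) for the 15 highest and 10 lowest named genes and for Lepr, Htr2c, Glp1r and the transmitter genes. Blue points compare the 396 members with 3999 other nuclei, red points the 157 members in cluster 10 with 4170 nuclei of the other clusters, bars are 95% intervals for counting error, and dotted lines mark 2-fold. Crhr2 stood at 5.44 and 17.4, and Slc17a6 at 1.16 and 0.299.

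The lowest genes among those at 50 CPM or more in the other nuclei were led by Prune2 at 0.401 (0.355 to 0.452), the imprinted zinc finger gene Plagl1 at 0.442 (0.364 to 0.534) and the growth hormone receptor Ghr at 0.447 (0.407 to 0.491). Cntnap5c, Lncbate1, Filip1, Arhgef28, the heparan sulfate sulfotransferase Hs6st2 and Rai2 followed between 0.452 and 0.490, and Adamts6 stood just short of 2-fold at 0.501. Ghr stood at 1421 CPM in the AGRP-like cluster against 107 (82 UMIs) in cluster 10 members. The AGRP-like cluster is among the other nuclei, and the ratio of Ghr without that cluster was not computed. Corin, a marker of AGRP neurons, was also past 2-fold lower, at 0.248 (0.1598 to 0.369), and that cluster held 1 member.

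Of 23 feeding hormone receptors at 5 CPM or more, Crhr2 and the thyrotropin-releasing hormone receptor Trhr were past 2-fold higher in members, and the calcitonin receptor Calcr, Crhr1 and Ghr past 2-fold lower. Over all genes tested, 0.376% were past 2-fold higher and 0.951% lower. Calcr and Ghr were high in the AGRP-like cluster, which is among the other nuclei, and their ratios without it were not computed. The list had a median ratio of 1.05, beside 0.973 over all genes tested. Trhr stood at 17.6 CPM in members outside cluster 10 (27 UMIs) and 9.12 in it (7 UMIs). Calcr, which amylin and calcitonin act on, stood at 18.7 CPM in members and 42.3 in the other nuclei, and 1 of its 43 UMIs in members lay in cluster 10. Htr2c, the serotonin receptor through which serotonin lowers food intake, stood just below the fold at 1.90 (1.73 to 2.09). Unlike Lepr it was alike in both subsets, at 238 CPM in cluster 10 and 221 outside it, a ratio of 1.08 (0.894 to 1.29). In cluster 10 members 7 of the 23 receptors were past 2-fold lower and 2 past 2-fold higher, beside 6.94% and 1.74% of all genes tested there, with Npy1r, Npy5r, Hcrtr2 and the prolactin receptor Prlr added to the 3 above, and the somatostatin receptor Sstr1 joined Crhr2 above.

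Of 5 acetylcholine receptor and synthesis genes other than Chrm2 at 5 CPM or more none was past 2-fold higher in members and Chat, the enzyme that makes acetylcholine, was past 2-fold lower at 0.344 (0.124 to 0.767). The shares over all genes tested were 0.376% higher and 0.951% lower. Chrm3, the Gq-coupled M3 receptor, stood at 28.6 CPM in cluster 10 members and 152 in the other clusters, 0.189 times (0.118 to 0.286). Chat had no UMI in cluster 10 members, where 3 counts would be 3.91 CPM. The GIRK channel genes Kcnj3 and Kcnj6, through which M2 receptors act, stood at 280 and 305 CPM in cluster 10 members, 1.46 (1.27 to 1.68) and 1.42 (1.24 to 1.62) times the other clusters. The other GIRK gene at 5 CPM or more, Kcnj9, stood at 22.1 CPM on 17 UMIs, 0.992 times (0.573 to 1.61). These levels were not particular to cluster 10 members. In the POMC-like cluster Kcnj3 was higher, at 413 CPM, Kcnj6 was alike at 303 and Chrm3 was as low at 27.3.

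Of 23 neuropeptide and granule protein genes none passed 2-fold in either direction over all members, and the median ratio was 0.858. Beside this, 0.376% of all genes tested were past 2-fold higher and 0.951% lower. Agrp and Pomc mark other neurons, and whether their UMIs in members came from those neurons was not tested. Agrp stood at 148 CPM in members of cluster 10 and 157 in members outside it, Pomc at 102 CPM in the former, and neither was higher than in the other nuclei (180 and 164 CPM). Cartpt, a rule gene, stood at 174 CPM (146 to 207) in cluster 10 members and 112 (95.9 to 130) outside, and was found in like shares of 47.1% and 50.6%.

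Of 31 hypothalamic transcription factors at 5 CPM or more, Nfib and Meis2 were past 2-fold higher in members, and Lhx1, a leading gene of the dopaminergic-like clusters 12 and 13, was past 2-fold lower. All genes tested had shares of 0.376% higher and 0.951% lower. Nfib was at like levels in both subsets, at 97.7 and 92.5 CPM. Meis2 stood at 6.51 CPM in cluster 10 and 15.0 outside it. Cluster 10 members were higher in Tbx3 (82.0 CPM, 2.09 times, 1.59 to 2.70), Tshz2 (1021 CPM, 2.24 times, 2.08 to 2.41), Six3 (65.1 CPM, 2.39 times, 1.76 to 3.20), Nkx2-1 (28.6 CPM, 2.10 times, 1.29 to 3.23) and Nfib. Tbx3, Six3 and Nkx2-1 are transcription factors of the developing ventral hypothalamus, and Tbx3 also marks POMC neurons. The POMC-like cluster stood at 93.7 CPM of Tbx3, 0.875 times being the ratio of cluster 10 members to it (0.645 to 1.18). On the lower side were 15 of the 31, beside 6.94% of all genes tested there, among them the oestrogen receptor Esr1 at 28.6 CPM (0.238 times, 0.149 to 0.361) and Sim1 with no UMI. The list's median was 0.547 for cluster 10 members, beside 0.958 over all genes tested.

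The remaining lists held few genes past the fold in all members, beside 0.376% of all genes tested higher and 0.951% lower. At such shares, a short list with no gene past the fold is not a result about that list. For cluster 10 members the shares were 1.74% and 6.94%. Among ephrin genes other than Epha6 0 of 11 passed in either direction, and Epha5 passed in cluster 10 members at 2.43 (2.25 to 2.62). Among GABA and glutamate receptors 0 of 32 passed, with a median of 1.10, and in cluster 10 members the glutamate receptor genes Gria4 (2.17, 2.06 to 2.29) and Grik1 (2.64, 2.42 to 2.87) passed above and Gabbr2, Grik3 and Gabre below. Among adenylyl cyclases other than Adcy2 0 of 8 passed, among fast transmitter genes 0 of 7 and among GIRK genes 0 of 3. Hs6st2 was the 1 of 16 glycan sulfation genes past the fold, on the lower side. Of 8 collagen genes, Col24a1 and Col12a1 were past the fold above and Col19a1 and Col6a1 below. Col24a1 had 77 UMIs in members and none in cluster 10.

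Cluster 10 members were set against the AGRP-like cluster, whose Lepr level of 119 CPM was near their 125. They had 59 UMIs of Crhr2 where that cluster had 3 (88.5-fold, 28.8 to 441). Of Oprd1 they had 43 where it had 2 (96.7-fold, 25.2 to 824). Htr2c was 10.8 times higher (8.25 to 14.4), Nfib 26.0 times (14.3 to 51.0) and Trpm3 31.2 times (24.9 to 39.6). Calcr was lower, with 1 UMI against 389, and Stat3 stood at 0.643 times (0.513 to 0.798). Against the POMC-like cluster they had 3.92 times the Slc32a1 (2.34 to 6.71), 0.231 times the Slc17a6 (0.112 to 0.430), 4.36 times the Oprd1 (2.57 to 7.59) and 23.1 times the Grik1 (17.7 to 30.6). Htr2c was 1.68 times higher (1.38 to 2.04) and Glp1r 0.778 times (0.302 to 1.79), an interval that includes 1. None of Crhr2, Oprd1 and Htr2c was confined to cluster 10. Over all nuclei of each cluster, Crhr2 stood at 63.5 CPM in cluster 10, 26.9 in cluster 9 and 18.2 in cluster 11. Oprd1 stood at 49.9 CPM in cluster 10 and 33.6 in cluster 12, and Htr2c at 275 in cluster 10 and 266 in cluster 1.

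Within cluster 10, the 68 non-members differed in both directions from the 157 members in genes that the rule did not use. Of the 68, 63 had no UMI of either RNA of the locus, and 39 had 4 or more rule genes. Depth was alike, at medians of 4678.5 and 4577 UMIs. Lepr stood at 20.99 CPM (8.44 to 43.2) on 7 UMIs in the non-members, and the members were 5.96 times higher (2.78 to 15.2). Stat3 stood at 29.98 CPM (14.4 to 55.1), with members 4.13 times higher (2.15 to 8.88), and Nkain2 and Tafa2 were 2.69 (2.49 to 2.90) and 2.75 (2.03 to 3.79) times higher in members. Crhr2 was 2.33 times higher (1.21 to 4.92). Slc32a1 was not, at 66.0 CPM (41.3 to 99.9) in non-members and 54.7 in members, and Slc17a6 was low in both, at 18.0 and 14.3 CPM. Other genes were lower in members, among them Syt1 at 0.366 times (0.319 to 0.419) and Grm7 at 0.429 (0.373 to 0.494). Pik3r1 at 0.251 (0.123 to 0.491) and Htr2c at 0.662 (0.523 to 0.841) were lower as well. Ror1 had 61 UMIs in members and 0 in non-members. Of the 103 Lepr UMIs of the cluster, 96 were in members. Lepr in cluster 10 members did not climb with the number of rule genes found, at 128 CPM with 4 (63.9 to 229), 154 with 5 (110 to 211), 98.0 with 6 (64.6 to 143) and 124 with 7 or 8 (74.5 to 193).

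Of the 157 members in cluster 10, 54 had a UMI of Lepr and 103 had none, at median depths of 4611.5 and 4564 UMIs. Chrm2 was found in 55.6% of the former (41.4 to 69.1) and 45.6% of the latter (35.8 to 55.7), Crhr2 in 24.1% (13.5 to 37.6) and 33.0% (24.1 to 43.0), and Oprd1 in 24.1% and 23.3%. The intervals overlap for each of these genes, so nuclei with and without a Lepr UMI were not told apart by them at this depth.

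Bche, which encodes butyrylcholinesterase, an enzyme that breaks down acetylcholine esters, is the next protein-coding gene beyond the end of Gm20754. It spans chr3:73635808-73708415 on the minus strand, 40977 bases away. It fell below 5 CPM over all nuclei and was singled out after its values were seen. Its 51 UMIs in members gave 22.1 CPM (16.5 to 29.1), with 42 of 396 members positive, against 1.84 CPM (1.30 to 2.54) in the other nuclei, a ratio of 12.0 (7.72 to 18.9). Members outside cluster 10 were also higher than the other nuclei, at 10.4 CPM (5.96 to 16.9) on 16 UMIs, 5.66 times (2.94 to 10.4). Crhr2 and Lepr were not higher in them, and for Lepr those other nuclei include the AGRP-like and POMC-like clusters. Of these 16 Bche UMIs, 13 lay in the 89 members of cluster 1, at 21.5 CPM (11.5 to 36.8), and the 150 members of the remaining clusters held 3. The 68 non-members of cluster 10 had 1 UMI. The genes before the start of Gm20754 were less apart, with Slitrk3 at 17.8 CPM (12.8 to 24.1) against 9.01 (7.75 to 10.4) and Sis at 1 UMI in members.

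**Figure D5:**
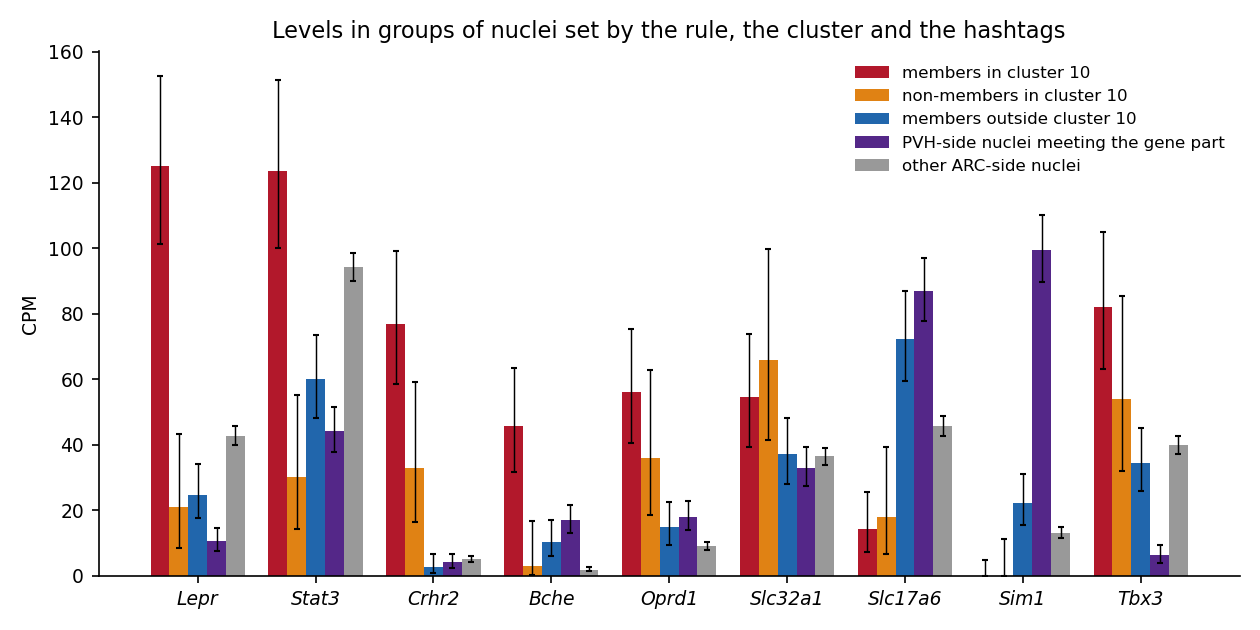
Level (CPM, bars from 0, with 95% Poisson intervals) of 9 genes that the rule did not use in 5 groups of nuclei: members in cluster 10, non-members in cluster 10, members outside cluster 10, nuclei of the PVH side that met the gene part of the rule, and the other ARC-side nuclei. Lepr stood at 125 CPM in members of cluster 10 and 20.99 in its non-members, and Sim1 stood at 99.5 CPM in the PVH-side nuclei and had no UMI in cluster 10.

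The gene part of the rule was not confined to the ARC side. On the PVH side 628 of 5775 nuclei met it, 10.9% (10.1 to 11.7), against 9.01% on the ARC side. Gm20754 stood at 335 CPM in these nuclei (317 to 354), below the 444 of the members, and Chrm2 at 130 (119 to 143), near their 117. They had 0.183 times the Lepr of the members (0.125 to 0.263), 0.1495 times the Crhr2 (0.0791 to 0.266) and 0.125 times the Tbx3 (0.0759 to 0.196). Sim1 was 6.74 times higher in them (4.74 to 9.89), Slc17a6 1.64 times (1.33 to 2.04) and Htr2c 1.82 times (1.64 to 2.01). Bche was again higher than in the other nuclei of that side, at 16.9 CPM (13.0 to 21.7) against 2.72 (2.11 to 3.46). Among members, Sim1 stood at 48.0 CPM (32.2 to 69.0) in the 89 of cluster 1, with 29 of the 34 member UMIs. Whether these came from PVH preparations was not tested.

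Members spread over the range of hashtag ratios. The ARC hashtag was 0.8 to 1 times the PVH hashtag in 96 members, 1 to 2 times in 246, 2 to 5 times in 47 and 5 or more times in 7. Lepr stood at 47.5 CPM (31.1 to 69.7), 67.3 (54.4 to 82.4) and 32.7 (16.3 to 58.5) in the first 3 bands, which held 46, 89 and 16 of the cluster 10 members. HTODemux called 319 members ARC singlets, 38 doublets and 39 negative. Where the ARC hashtag was at least 2 times the PVH hashtag, 54 members were left and Lepr was 0.943 times the other nuclei (0.499 to 1.65), an interval that holds the main ratio of 1.36.

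The 5 neuronal markers summed to 2249 CPM in members (2188 to 2311) and 2254 in the other nuclei. The 6 astrocyte markers summed to 29.95 CPM in members and 35.8 in the others, with Gja1 at 0. The 5 oligodendrocyte markers summed to 85.1 CPM against 112, the 4 microglia markers to 111 against 113, the 4 endothelial markers to 6.95 against 9.11 and the 5 tanycyte markers to 107 against 117. The 4 markers of oligodendrocyte precursors were higher, at 26.5 CPM (20.3 to 34.0) against 13.0 (11.5 to 14.7). They summed to 66.2 CPM in the 89 members of cluster 1 and 6.51 in cluster 10 members, where Pdgfra and Cspg4 were at 0. Cluster 1 passed the lists of both oligodendrocytes and their precursors and stays unnamed, and the part of those markers in its members was not tested.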

How the data were processed

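NeuN-sorted nuclei of 1 library that the labels call ARC, and its hashtag library with an ARC and a PVH hashtag, were analysed. The deposited matrices hold UMI counts, not normalized, which the authors made with Cell Ranger (5.0 in the submitters' processing notes, 4.0.0 in the matrix header) on mm10 and analysed with Seurat 4. No source used here says whether counting was by strand. UMIs of a gene were summed over the nuclei of a group, divided by the group's total UMIs and multiplied by 1000000. This was done in Python 3.11.15 with numpy 2.4.6, pandas 2.3.3, scipy 1.17.1, scikit-learn 1.9.0 and matplotlib 3.10.9. Clusters were made with leidenbase 0.1.32 and Seurat 5.3.0 under R 4.3.3 (30 components, 20 neighbours, resolution 0.55), and a name needed 3 markers of a list at 1.5-fold, its first marker among them, with no other list passing. Hashtag calls used HTODemux at a positive quantile of 0.8, and no expression-based doublet caller was run. Genes were compared at 5 CPM or more. Named genes were the 15 highest ratios with at least 20 UMIs in members, the 10 lowest among genes at 50 CPM or more, and list genes past 2-fold. Members and lists were chosen with earlier results of these data known. Scripts were tested on simulated data. Gene positions came from GENCODE M21 (32158 of 32285 identifiers matched). Alternatives changed the rule, the hashtag limit, the filters, depth and the reference nuclei. The results of a few list genes are not reported here.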

Additional observations from a re-analysis of the deposited data

How the results depend on the processing

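The ratio of Lepr between members and other nuclei (1.36) ran from 0.580 to 3.40 over 20 alternatives and went below 1 in 2 of them. It was 0.943 where the ARC hashtag was at least 2 times the PVH hashtag and 0.580 for members outside cluster 10. The 0.580 was taken against nuclei that include the AGRP-like and POMC-like clusters. The ratio of Glp1r moved in 1 alternative of 20, that of Cxcl12 in 2, that of Slc32a1 in 3 and that of Slc17a6 in 7. In what follows counts are genes at least 2-fold higher, then lower, against 47 and 119.

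With at least 3 rule genes, Slc17a6 was 1.44 and the counts 29 and 58. With at least 5, 231 members were left, with Lepr 1.98, Slc17a6 0.881 and counts of 89 and 303. With at least 6, 104 were left, with Lepr 2.18, Slc32a1 1.46, Slc17a6 0.742 and counts of 215 and 850. With both RNAs of the locus, 191 were left, with Lepr 2.38 and counts of 112 and 401. With at least 2 UMIs of the pair, Lepr was 1.94 and the counts 75 and 238. Without Cartpt the lower count was 188. With the stricter hashtag limit, 54 members were left, with Glp1r 2.67, Cxcl12 14.9 and counts of 367 and 1162.

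In nuclei of 4000 to 8000 UMIs, Lepr was 1.11 and the counts 76 and 258. Thinned to 1000 UMIs, Cxcl12 was 0, Slc17a6 1.43 and the counts 288 and 1056. As a mean over nuclei Lepr was 1.65, and without the AGRP-like and POMC-like clusters 3.40. For the 157 members in cluster 10, Lepr was 2.996, Slc32a1 1.52, Slc17a6 0.299 and the counts 217 and 867. Genes at 20 CPM or more gave 15 and 20, and no filter gave 1543 and 798, with more or fewer genes tested.

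Alternatives chosen after seeing the data were the clustering without list genes (158 members, Lepr 2.99, Slc32a1 1.49, Slc17a6 0.298, counts 214 and 870), the 239 members outside cluster 10 (Slc17a6 1.58) and the pair counted as 1 gene. The causes were not tested. No paired analysis was possible because the series has 1 pooled sample and no replicates. Single UMIs decided membership in many nuclei, and Cxcl12 and Glp1r were too sparse to order.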
